A study of Mus musculus with 37 samples.

Results

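Pattern recognition receptors are the germline-encoded sensors with which myeloid cells detect microbes, and this report describes the genes for these receptors and for the proteins that carry their signal to NF-kB. Members were the genes whose symbol began with one of a fixed set of family stems (Toll-like receptors and adaptors, NLR and CARD proteins, C-type lectins, IRAK, TRAF, TAB and RIP proteins, IKK and IkB proteins, TNF-induced proteins, caspases and IAPs) and that reached a value of 10 in at least 1 group. There were 66 such genes among 6509 genes with a name, and they were covered by 182 transcripts. Because the rule reads only the symbol, a few members share a name but not the function, such as Ikbkap, an Elongator subunit, and Traf3ip1, a ciliary protein. The receptor for LPS itself, Tlr4, and the adaptor Myd88 were not analysed here. Other genes of these families, such as Tlr2, Irak1 and Traf6, were not analysed either, so family counts and rankings cover only the members.

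The study compared 5 myeloid cell types of C57Bl6cJ mice to ask how each responds to LPS and to the anti-inflammatory cytokine IL-10. Thioglycollate-elicited peritoneal macrophages were selected by adherence overnight, neutrophils came from the bone marrow of pooled mice and were kept overnight with GM-CSF, splenic dendritic cells (sDCs) were enriched on beads, and mast cells and eosinophils were grown from bone marrow. Macrophages, neutrophils, sDCs and mast cells were left untreated, given IL-10 (100 ng/ml, 4 h), given LPS (100 ng/ml, 4 h), or given IL-10 for 4 h and then LPS for 4 h; eosinophils were left untreated or given LPS. Groups without LPS were harvested at 4 h and groups with LPS at 8 h, so that an effect of LPS and one of the longer culture cannot be told apart. The 36 RNA-seq libraries make 18 groups of 2, prepared from separate mice or pools, and the macrophage replicate 1 libraries without LPS came from earlier work. All sDC libraries and 1 of the mast cell replicates were made with another library kit, so that cell type and kit cannot be fully told apart.

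Each group has 1 column of normalised values, here summed over the transcripts of a gene. The columns were read as the authors' means of the 2 libraries, since their names give no replicate and all values are multiples of 0.5. This reading is an assumption that the values do not settle, because exact values of single transcripts recur in different columns. The value 45878, for example, stood for Clec4d in untreated and IL-10 macrophages and for Clec7a in untreated neutrophils. The deposited columns carry no spread between replicates and no read depth. No difference below therefore has a replicate check, no test was made and the precision of each value is unknown. A gene was kept in a cell type when at least 1 of its groups reached 10, and was called higher or lower when log2(value + 1) differed by a fold of at least 2. Counts of members called are read against the share of all genes called in the same comparison. Values of genes at the top of the table are bounded by the normalisation, since all 18 columns have the same maximum of 185338. The recurring values lie further down, so the limit is not confined to the top. Differences between groups and between cell types are therefore read on a common normalised scale, where a shift of most genes together may not show. The cells are bulk populations, so that a change in the share of a cell type and a change in RNA per cell cannot be told apart.

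The labelled cell types were checked against marker genes. Tpsb2 (mast cells) stood at 187513.5 to 187854.5 and Epx (eosinophils) at 185338 in the cells they mark, Cd68 at 77545.5 to 185724.5 in macrophages and Mpo at 20675 to 25600 in neutrophils. Some listed markers were higher in other cells. The neutrophil marker Ly6g was at 161.5 in untreated neutrophils and 188.5 in untreated eosinophils. The macrophage marker Timd4 was at 59 in untreated macrophages and 187.5 in untreated sDCs. With LPS, Emr1 was at 16808 in macrophages and 22514.5 in eosinophils. For sDCs only Itgax and Xcr1 of 10 listed markers were in the table, and Itgax was lower in untreated sDCs (4075.5) than in macrophages (13861). The neutrophil groups also carried markers of other cells. Their 3 eosinophil markers summed to 27197.5 to 30791, against at least 280958 in eosinophils, their 4 B cell markers to 3790.5 to 5975.5, and their macrophage markers to 7588.5 to 18173.5. In sDCs the neutrophil markers summed to 1165.5 to 6806.5 and B cell markers to 1564 to 1880.5. The part of these cells in the results below was not tested.

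Toll-like receptors bind microbial lipids, proteins or nucleic acids and signal through the adaptors Myd88 and Ticam1 to the IRAK kinases and TRAF6. This leads to the TAB-TAK1 and IKK kinases, to degradation of IkB and to entry of NF-kB into the nucleus. C-type lectins such as Clec7a (dectin-1) and Clec4e (Mincle) sense fungal and mycobacterial sugars and signal through Syk and Card9. NF-kB in turn induces its own brakes, among them the ubiquitin-editing enzyme A20 (Tnfaip3) and its partner ABIN1 (Tnip1).

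A short stretch of DNA of the kind that NF-kB binds was looked for in the 250 bases before the start of each gene's most abundant transcript (NCBIM37, GENCODE vM1). The kB consensus, read on both strands, was present in 5 of the 66 member promoters (7.58%) and in 4.61% of all 6503 promoters read. It was found in 3 of the 11 members that LPS raised in 3 or more cell types (27.3%), Birc3, Tnfaip3 and Tnip1. It was in 1 of 18 raised in 1 or 2 cell types (5.56%) and in 1 of 37 raised in none (2.7%). The share among all genes raised in 3 or more cell types was not taken, so whether 27.3% is particular to the members is not known. The windows of 30 bases around the matches in Birc3, Tnfaip3 and Tnip1 are shown because these 3 genes recur in the LPS results. They read 5′ to 3′ along the gene, with the letters that match the consensus in capitals.
Birc3, chr9:7873066-7873095 minus strand, inside an exon of another Birc3 transcript: gaagagccacGGAAATCCCCagccagggtg
Tnfaip3, chr10:18735322-18735351 minus strand, inside Tnfaip3 by another transcript but outside its exons: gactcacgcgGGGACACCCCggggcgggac
Tnfaip3, chr10:18735217-18735246 minus strand, likewise inside Tnfaip3 and outside exons: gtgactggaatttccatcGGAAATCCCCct
Tnip1, chr11:54776480-54776509 minus strand, outside annotated genes: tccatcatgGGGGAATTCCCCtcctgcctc
The matches began 61 bases before the transcript start in Birc3, 125 and 12 bases before it in Tnfaip3 and 82 bases before it in Tnip1, where 4 overlapping matches on both strands form a run of 12 bases. The other members with a match were Tnfaip8l1 and Traf3. The core of interferon regulatory factor sites, GAAANNGAA, was in 6.06% of member promoters and 7.44% of all, and the core of STAT sites, TTCNNNGAA, in 13.6% and 6.15%. A match describes letters and does not show binding.

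LPS raised a larger share of the members than of all genes in macrophages, neutrophils, mast cells and eosinophils, and lowered a larger share in macrophages, neutrophils and sDCs. In macrophages 22 of 61 members kept were higher (36.1%, against 12.8% of all genes) and 15 were lower (24.6% against 14.8%). In neutrophils 17 of 63 were higher (27.0% against 8.71%) and 11 lower (17.5% against 7.9%). Mast cells had 11 of 53 higher (20.8% against 4.76%) and 2 lower (3.77% against 5.46%), and eosinophils 8 of 53 higher (15.1% against 2.16%) and 0 lower (against 0.702%). Splenic DCs had more members lower than higher, with 7 of 62 higher (11.3% against 9.04%) and 19 lower (30.6% against 11.5%). The share raised in sDCs is near that of all genes, and below it with the largest transcript only (8.2% against 9.17%). The median log2 difference of the members was 0.27 in macrophages and −0.16 in sDCs, where the median of all genes was −0.15 and −0.14.

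**Figure D1:**
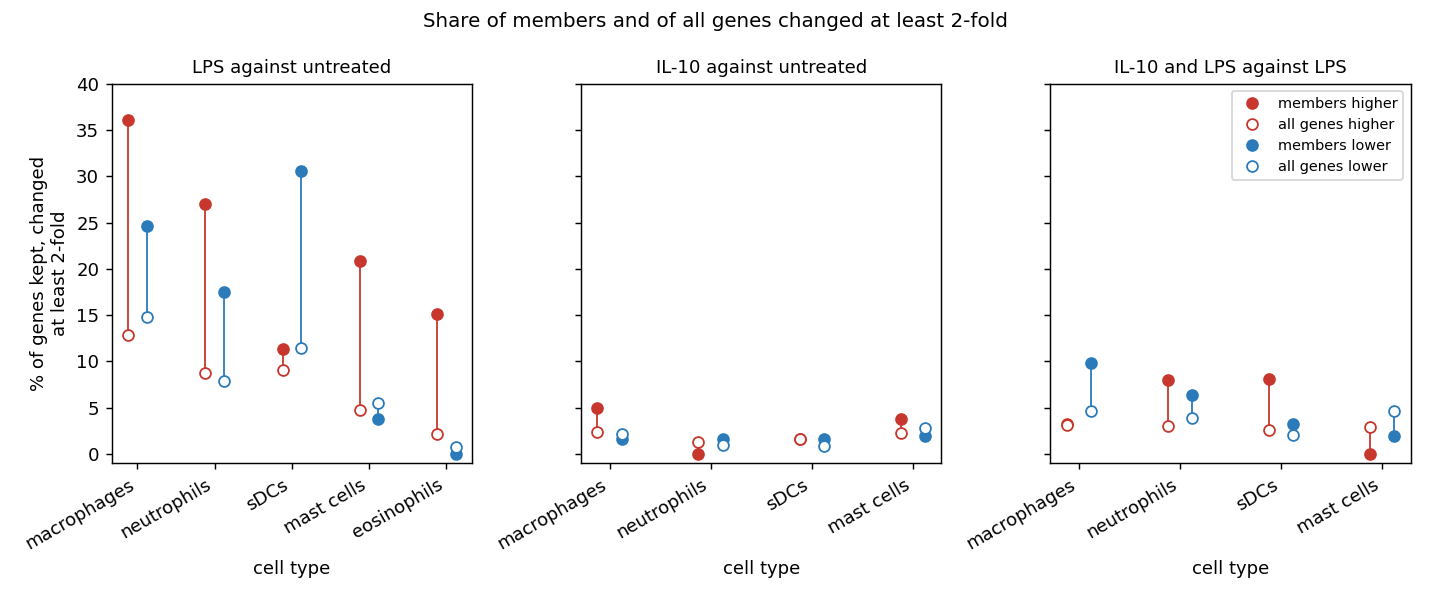
Percentage of genes kept (y axis) that changed at least 2-fold, higher in red and lower in blue, in each cell type (x axis) for the 3 kinds of comparison; filled points are the members and open points all genes. With LPS the filled points for genes raised lie above the open ones in macrophages, neutrophils, mast cells and eosinophils; in sDCs they are close (11.3% against 9.04%, and 8.2% against 9.17% with the largest transcript only), while 30.6% of the members were lower.

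Of the 49 members kept in all 5 cell types, LPS raised 10 in at least 3 of them (20.4%, against 3.74% of all genes). These were Birc3, Clec2d, Clec4d, Clec4e, Ikbke, Tlr1, Tlr7, Tnfaip2, Tnfaip3 and Tnip1. Clec4e and Tnfaip3 were raised in all 5 (4.08%, against 0.735%). Lower in at least 3 were Clec7a and Nlrp1b (4.08%, against 2.57%). Outside these 49, LPS raised Tlr3 in 3 cell types and lowered Clec10a in 4 and Nlrp1a and Nlrp1c-ps in 3 each. Card10, Casp12, Clec4n and Tnfaip8l1 were raised in 1 cell type and lowered in another (4 of 62, 6.45%, against 3.78%). No call was made in any cell type for 13 of the 49 (26.5%, against 64.5% of all genes), among them the adaptor Ticam1, the kinase Irak4, Tab1 and Tab3, Traf3, the inflammasome adaptor Pycard and Casp1.

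**Figure D2:**
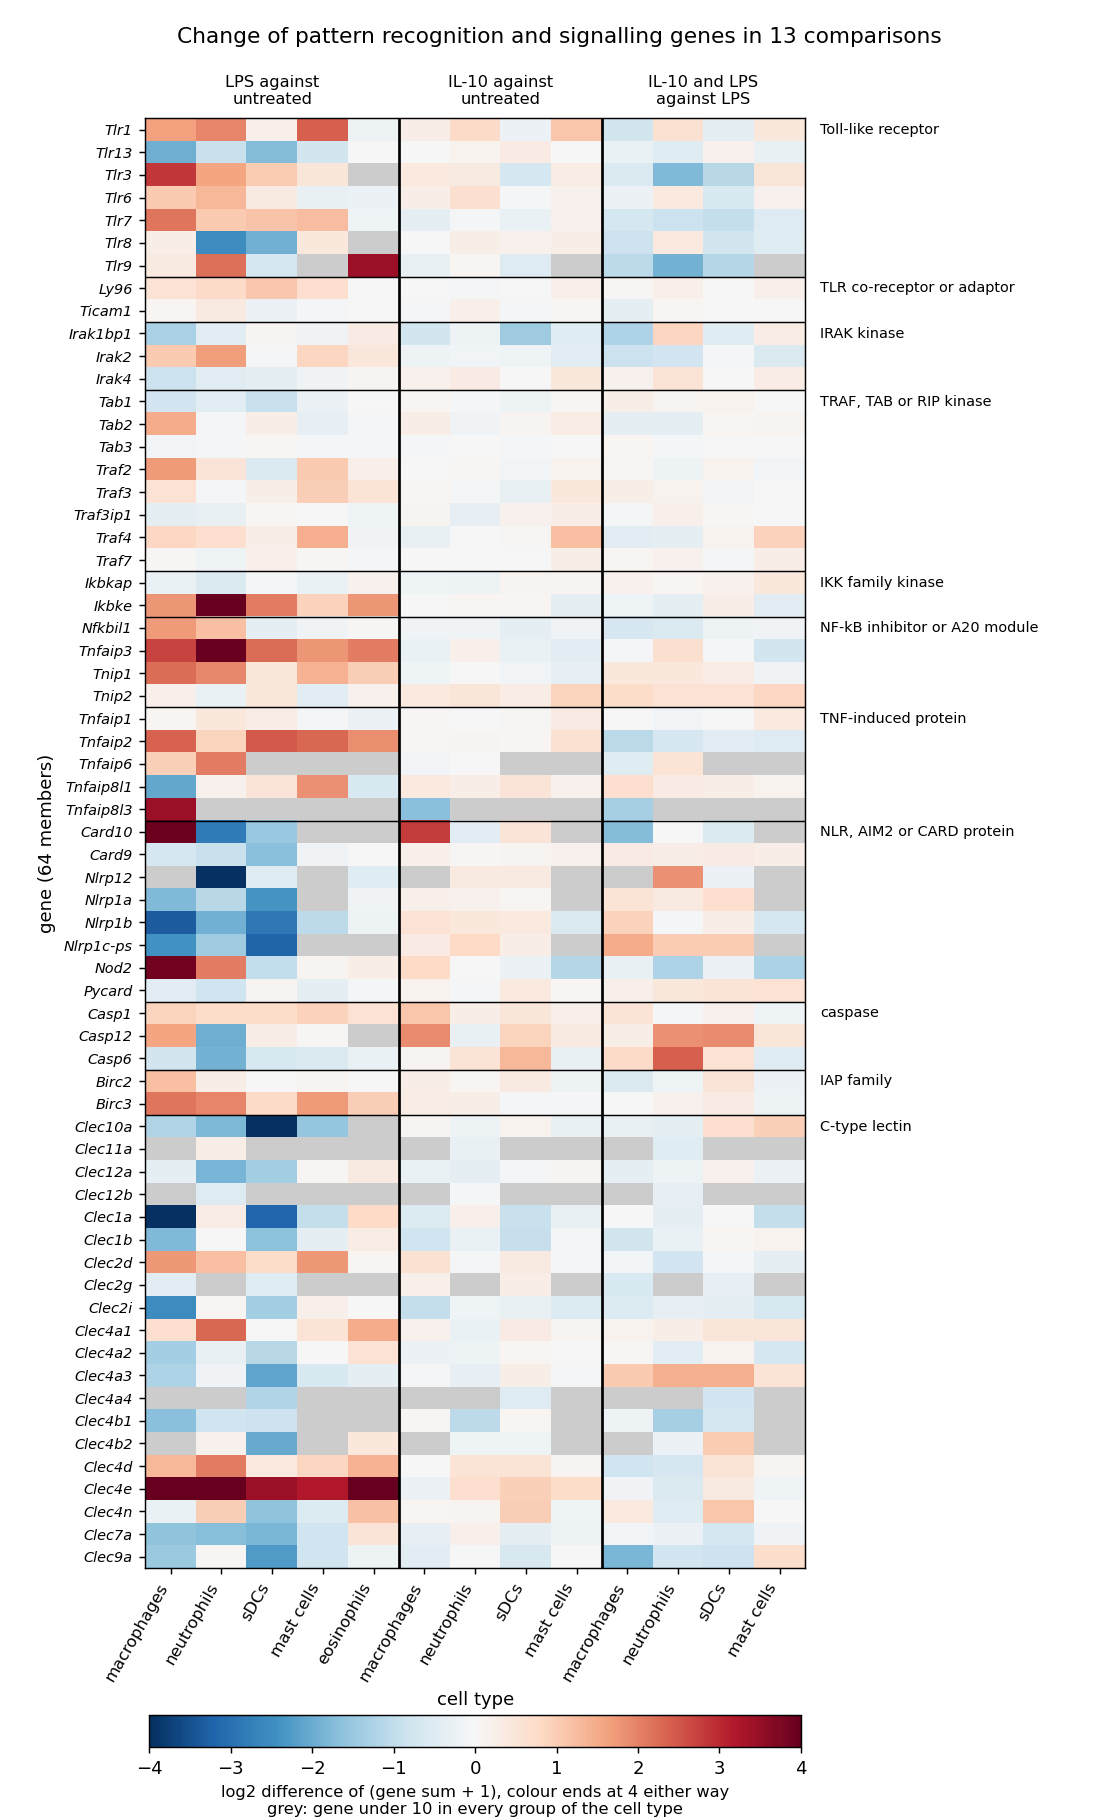
Log2 difference of (gene sum + 1) for 64 members (rows, grouped by role) in the 13 comparisons (columns: LPS against untreated, IL-10 against untreated, and IL-10 and LPS against LPS). Red is higher, blue lower, and grey marks genes under 10 in every group of that cell type. Genes listed at 0 in 1 group have a colour but no defined fold. The deepest colours also include defined folds, such as Clec10a with LPS in sDCs (−5.63). The Clec4e row is dark red in all 5 LPS columns (3.21 to 4.85), and the Nlrp1a, Nlrp1b and Nlrp1c-ps rows are blue in macrophages, neutrophils and sDCs.

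The 7 Toll-like receptor genes analysed were all kept in the 3 primary cell types. LPS raised 4 and lowered 1 in macrophages, raised 5 and lowered 1 in neutrophils and raised 2 and lowered 2 in sDCs. It raised 2 of the 6 kept in mast cells and 1 of the 5 kept in eosinophils and lowered none there. The shares of all genes raised were 12.8%, 8.71%, 9.04%, 4.76% and 2.16% in these 5 cell types, and those lowered 14.8%, 7.9%, 11.5%, 5.46% and 0.702%. Their median log2 difference was 1.04, 1.32, 0.21, 0.45 and −0.17 in that order. Per kilobase of transcript and among these 7, untreated macrophages held most of Tlr13 (2962), the sensor of bacterial ribosomal RNA. Tlr8 (1552), Tlr7 (667) and Tlr1 (445) followed. Untreated sDCs held most of Tlr1 (1395) and then Tlr9 (671) per kilobase, and neutrophils most of Tlr13 (1427) and then Tlr6 (241).

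Tlr3, the receptor for double-stranded RNA, was at 264 in untreated, 346.5 in IL-10, 1863.5 in LPS and 1260 in IL-10 and LPS macrophages, a log2 difference of 2.81 with LPS. In the other cell types it stayed at 53 or below, with 8 against 26 in untreated and LPS neutrophils and 26 against 53 in untreated and LPS sDCs. Tlr7, which binds single-stranded RNA in endosomes, rose from 2408 to 10690.5 in macrophages (2.15), from 245 to 505 in neutrophils (1.04), from 360 to 793.5 in sDCs (1.14) and from 20.5 to 49.5 in mast cells (1.23). Eosinophils had 17.5 untreated and 15.5 with LPS. Both genes were called higher in macrophages, neutrophils and sDCs, the Tlr3 calls in the last 2 at low levels, and that in sDCs ended with a pseudocount of 10 (0.81).

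Tlr8 changed from 3352 to 4035 in macrophages (0.27, not called), but fell from 257.5 to 44 in neutrophils (−2.52) and from 198.5 to 51.5 in sDCs (−1.93). Tlr13 fell from 12025 to 3117 in macrophages (−1.95) and from 1584 to 472.5 in sDCs (−1.74), with 5792 against 3112 in neutrophils (−0.90) and 1191 against 1167 in eosinophils (−0.03). Untreated Tlr8 and Tlr13 were highest in macrophages, ahead of neutrophils.

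Tlr9, the receptor for unmethylated CpG DNA, was highest in untreated sDCs (2329.5, 7.9 times the neutrophil value on the +1 scale). LPS raised it from 294 to 1349.5 in neutrophils (2.19) and from 11 to 126.5 in eosinophils (3.41), where only 22 of 5559 genes had a larger increase. In sDCs it stood at 1418 with LPS (−0.72, not called) and in macrophages at 182 and 233.5. Neutrophils and eosinophils, the 2 granulocyte preparations, were the cell types with a call for Tlr9. In mast cells Tlr9 was under 10 in every group and was not kept, so no call was possible there. The B cell markers summed to 69.5 to 77 in eosinophils and to 3790.5 to 5975.5 in neutrophils. The part of B cells in the Tlr9 values was not tested.

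Of the surface receptors, Tlr1, which pairs with Tlr2 to bind lipopeptides, rose from 1181 to 3689.5 in macrophages (1.64), from 170.5 to 665 in neutrophils (1.96) and from 41 to 221 in mast cells (2.40). It stood at 3700 and 4274 in sDCs and at 78.5 and 67.5 in eosinophils. Tlr6, the alternative partner of Tlr2, rose from 540 to 1112.5 in macrophages (1.04) and from 628 to 1569.5 in neutrophils (1.32) and was not called elsewhere. Ly96 (MD-2), the protein that holds LPS on Tlr4, rose in sDCs from 234 to 490.5 (1.06), with differences of 0.59 to 0.78 in macrophages, neutrophils and mast cells and −0.01 in eosinophils. The adaptor Ticam1 (TRIF) differed by −0.23 to 0.36 across the 5 cell types.

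**Figure D3:**
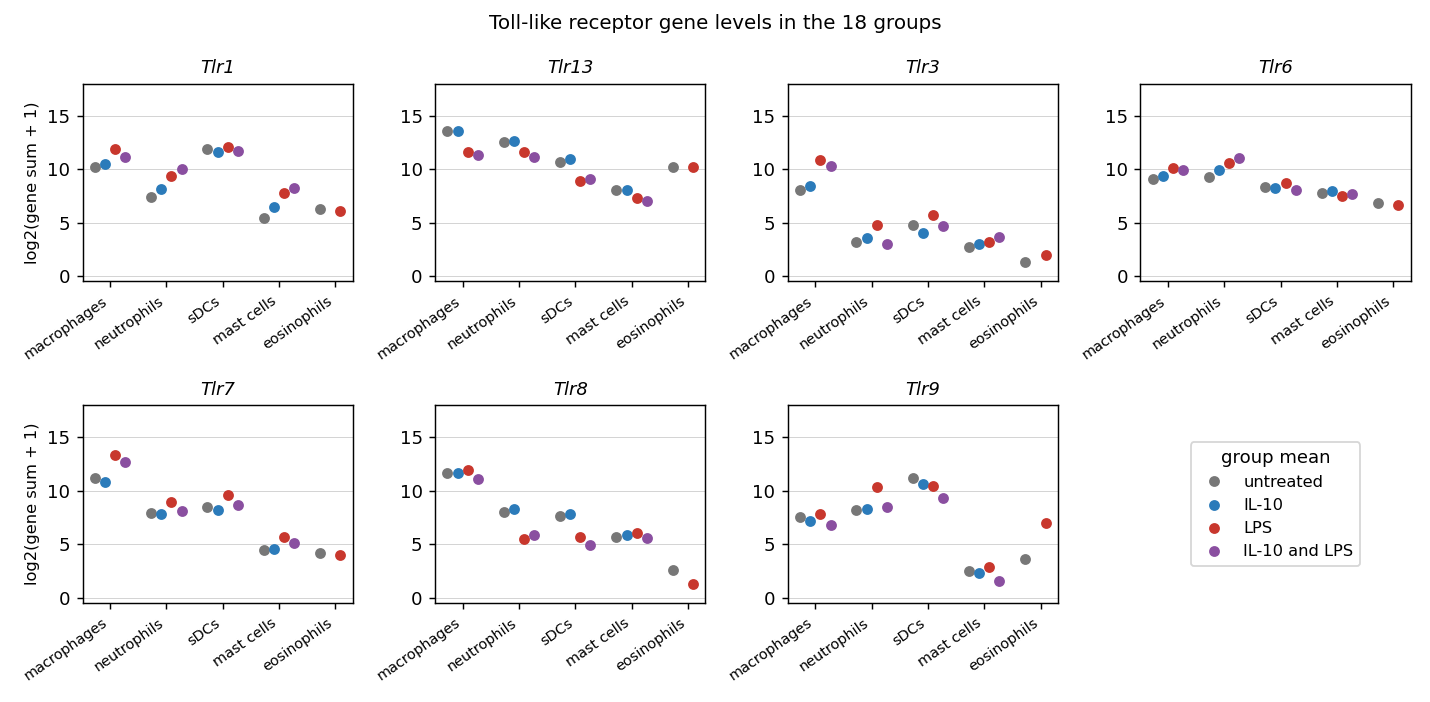
Level of the 7 Toll-like receptor genes analysed as log2(gene sum + 1) (y axis) in each cell type (x axis). Each group has 1 point, read as a mean of 2 libraries and coloured by treatment. The red LPS points of Tlr7 lie above the grey untreated ones in macrophages, neutrophils, sDCs and mast cells, and those of Tlr13 lie below in macrophages (3117 against 12025) and sDCs (472.5 against 1584).

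Among the proximal kinases, Irak2, a kinase needed for sustained Toll-like receptor signalling, rose from 2888 to 6011 in macrophages (1.06) and from 2177 to 6931 in neutrophils (1.67), with 0.85 in mast cells, 0.45 in eosinophils and −0.09 in sDCs. Irak4, the first kinase of the Myddosome, had negative differences in macrophages (−0.87), neutrophils (−0.42), sDCs (−0.38) and mast cells (−0.14), none called. Of the 8 TRAF and TAB genes, Traf3ip1 among them, 2 were raised in macrophages, Tab2 (4296 to 11990.5, 1.48) and Traf2 (435.5 to 1406, 1.69). Mast cells raised Traf2 (1075.5 to 2208.5, 1.04) and Traf4, which stayed under 10 with LPS (2.5 to 8.5). None of the 8 was called in neutrophils, sDCs or eosinophils, and none was lowered in any cell type. Among all genes, macrophages had 12.8% raised and 14.8% lowered, and mast cells 4.76% and 5.46%. These shares were 8.71% and 7.9% for neutrophils, 9.04% and 11.5% for sDCs, and 2.16% and 0.702% for eosinophils.

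Ikbke (IKK epsilon), a kinase that acts on IRF3 and is itself NF-kB inducible, was at 1284.5 in untreated and 1361.5 in IL-10 neutrophils, and at 20308.5 with LPS and 15813.5 with IL-10 and LPS. This log2 difference of 3.98 with LPS compares with 1.78 in macrophages (2364.5 to 8119), 2.08 in sDCs (394.5 to 1665.5), 1.75 in eosinophils (583 to 1966.5) and 0.93 in mast cells (658 to 1256.5, not called). Whether the neutrophil increase differs from the others could not be tested on 1 value per group.

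Of the 4 genes of the NF-kB inhibitor and A20 group, LPS raised 3 in macrophages and 3 in neutrophils. It raised 2 in mast cells and only Tnfaip3 in sDCs and eosinophils, and lowered none of the 4. Among all genes, macrophages had 12.8% raised and 14.8% lowered, and neutrophils 8.71% and 7.9%. These shares were 4.76% and 5.46% for mast cells, 9.04% and 11.5% for sDCs, and 2.16% and 0.702% for eosinophils. Tnfaip3 went from 2808 to 18410 in macrophages (2.71), from 1224.5 to 19019.5 in neutrophils (3.96), from 7375 to 34957.5 in sDCs (2.24), from 6227.5 to 21017.5 in mast cells (1.75) and from 1038.5 to 4319 in eosinophils (2.06). Every group given LPS thus had at least 4319. Tnip1 rose from 2219.5 to 10519 in macrophages (2.24), from 2138.5 to 8080 in neutrophils (1.92) and from 2444.5 to 6409.5 in mast cells (1.39). Its differences of 0.99 in eosinophils and 0.44 in sDCs were not called, the eosinophil value lying just inside the fold of 2. Tnip2 (ABIN2) differed by −0.43 to 0.47, and Nfkbil1, an IkB-like protein, rose in macrophages (248.5 to 803.5, 1.69) and neutrophils (360.5 to 823.5, 1.19).

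Birc2 and Birc3, the cellular IAP ubiquitin ligases that with Traf2 and Traf3 keep the kinase NIK (Map3k14) low, had their highest level in sDCs. Untreated Birc2 was at 25923 in sDCs, 1018 in mast cells, 683.5 in eosinophils, 549 in neutrophils and 379.5 in macrophages, a 25.4-fold difference between sDCs and the next cell type. Untreated Birc3 was at 18276 in sDCs and at 938.5 to 2239.5 in the others, and untreated Traf2 at 4381 in sDCs and 435.5 to 1075.5 in the others. Map3k14, which is not a member, was at 12263 in untreated sDCs and at 351 to 805 in the other untreated cells, and fell to 3478 in sDCs with LPS (−1.82). Reads may be shared between Birc2 and Birc3, which are similar in sequence. The 4 B cell markers with values, of 7 listed, summed to 1564 to 1880.5 in sDC groups and to 3790.5 to 5975.5 in neutrophil groups. The part of B cells in the levels above was not tested. Cd4 was at 2306.5 in untreated sDCs and at most 58.5 in the other untreated cells. Of 8 listed T cell markers only Cd4 had values, and which cells carried it was not tested.

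LPS raised Birc3 from 938.5 to 4113.5 in macrophages (2.13), from 2239.5 to 8616.5 in neutrophils (1.94) and from 2186 to 7077 in mast cells (1.69). In eosinophils it went from 2239 to 4439.5 (0.99, not called) and in sDCs from 18276 to 31099.5 (0.77, not called). Birc2 was called in macrophages alone among the 5 (379.5 to 870, 1.19). Among the TNF-induced proteins, Tnfaip2 rose in macrophages (6027.5 to 30695, 2.35), sDCs (3804.5 to 20643, 2.44), mast cells (494 to 2418, 2.29) and eosinophils (462.5 to 1690, 1.87), and stood at 8943.5 and 16529 in neutrophils (0.89).

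**Figure D4:**
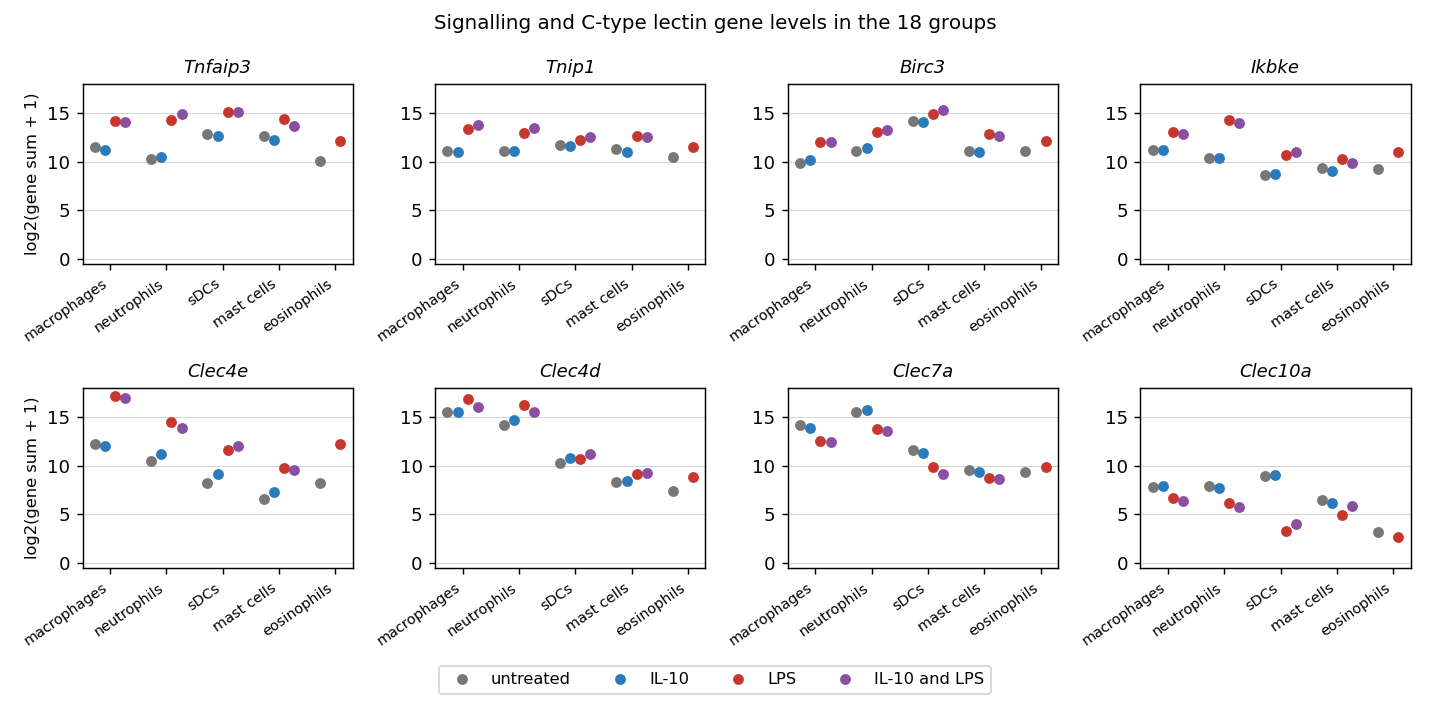
Level as log2(gene sum + 1) (y axis) of 4 signalling genes and 4 C-type lectins in each cell type (x axis). Each group has 1 point, read as a mean of 2 libraries and coloured by treatment. LPS points of Tnfaip3 and Clec4e lie above the untreated points in all 5 cell types, those of Clec7a and Clec10a lie below in macrophages, neutrophils, sDCs and mast cells, and Birc3 is highest in sDCs in every treatment.

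Cytosolic sensors divided between Nod2 and the NLRP1 genes. Nod2, the sensor of muramyl dipeptide, was at 138 in untreated, 241 in IL-10, 1995 in LPS and 1632.5 in IL-10 and LPS macrophages (3.84 with LPS). It rose from 392.5 to 1615 in neutrophils (2.04) and stood at 1580 and 803.5 in sDCs (−0.97, just inside the fold of 2), 144 and 155.5 in mast cells and 290 and 347 in eosinophils. Untreated sDCs thus had a Nod2 value 4.02 times that of the next cell type, and macrophages the lowest untreated value and the highest with LPS.

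The inflammasome sensors of the NLRP1 family fell with LPS. Nlrp1b went from 330.5 to 32 in macrophages (−3.33), from 185 to 48 in neutrophils (−1.92), from 297.5 to 40 in sDCs (−2.86) and from 23 to 10.5 in mast cells (−1.06), with 26.5 and 23 in eosinophils. Nlrp1a fell from 190.5 to 55.5 in macrophages (−1.76), from 191.5 to 88 in neutrophils (−1.11) and from 157 to 29.5 in sDCs (−2.37). The pseudogene Nlrp1c-ps fell in the same 3 cell types, from 69 to 12 in macrophages, and since these genes are near-identical in places the reads may be split between them. Nlrp12, a negative regulator of inflammatory signalling, fell in neutrophils from 1490 to 90 (−4.03), with only 7 of 5949 genes falling further, and stood at 1127.5 and 800.5 in eosinophils (−0.49). Untreated, IL-10 and LPS macrophages all listed Nlrp12 at 0.

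Of the CARD proteins, Card9 fell in sDCs from 2108.5 to 655.5 (−1.68) and stood at 2302 and 1230 in neutrophils (−0.90). Card10 was highest in neutrophils, with 744 untreated and 105.5 after LPS (−2.81), and untreated macrophages listed it at 0 against 14 after LPS. Casp1, which processes IL-1 beta, had a positive difference in all 5 cell types (0.57 to 0.93), none of them called, and Pycard had −0.79 to 0.11. Casp6 fell in neutrophils from 437 to 116.5 (−1.90). Casp12 rose in macrophages (32.5 to 99.5) and fell in neutrophils (12.5 to 2.5), a call at levels near the minimum of 10 that ended with a pseudocount of 10 (−0.85).

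The C-type lectins went in both directions. LPS raised 3 and lowered 9 of the 16 kept in macrophages (median −1.21), raised 1 and lowered 12 of 18 in sDCs (median −1.37), raised 4 and lowered 3 of 18 in neutrophils (0.07), raised 2 and lowered 1 of 14 in mast cells (−0.19) and raised 4 and lowered none of 14 in eosinophils (0.48). Of all genes, 12.8% were raised and 14.8% lowered in macrophages and 9.04% and 11.5% in sDCs, with 8.71% and 7.9% in neutrophils, 4.76% and 5.46% in mast cells and 2.16% and 0.702% in eosinophils. Several of these genes lie in 1 cluster and resemble each other (Clec4a1 to Clec4a4, Clec4b1, Clec4b2), and Clec1a, Clec1b and Clec9a overlap, so that their reads may be split or shared. Whether reads were counted by strand is not stated in the sources at hand.

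Clec4e (chr6:123231807-123239889, minus strand), the Mincle receptor for mycobacterial trehalose dimycolate, was the member with the largest defined increase in each of the 5 cell types, with Ikbke at the same rounded value in neutrophils. It was at 4917 in untreated, 4136 in IL-10, 141761 in LPS and 129208 in IL-10 and LPS macrophages. The corresponding values were 1439, 2284.5, 22791 and 15211 in neutrophils, 298.5, 574, 3178.5 and 4084 in sDCs, and 92.5, 156, 864 and 765.5 in mast cells. Eosinophils had 296.5 untreated and 4776.5 with LPS. These are log2 differences with LPS of 4.85, 3.98, 3.41, 3.21 and 4.01, and in eosinophils only 10 of 5559 genes rose further.

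Clec4d (dectin-3), the partner of Clec4e, rose from 45878 to 115608 in macrophages (1.33), from 18242.5 to 77341 in neutrophils (2.08) and from 174 to 453 in eosinophils (1.38), with 0.40 in sDCs and 0.87 in mast cells. Clec4n (dectin-2) fell in sDCs from 3392.5 to 1105 (−1.62) and rose in eosinophils from 187.5 to 424.5 (1.17). In neutrophils it went from 18880.5 to 37359.5 (0.98, just inside the fold of 2). Clec2d, a ligand of an inhibitory natural killer cell receptor, rose in macrophages (1425 to 4724, 1.73), neutrophils (1669.5 to 3823.5) and mast cells (2181 to 7292, 1.74). Clec4a1, of the dendritic cell immunoreceptor family, rose in neutrophils from 180 to 888 (2.30) and in eosinophils from 6 to 18.5, a call that a pseudocount of 10 ended (0.83). Of the 5 macrophage markers in neutrophils, from untreated to LPS, Emr1 went from 4346 to 14667.5, Cd68 from 2788 to 3140, Mrc1 from 454.5 to 124.5, Marco from a listed 0 to 241 and Timd4 from a listed 0 to 0.5.

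Clec7a, the dectin-1 receptor for beta-glucan, fell with LPS from 18533.5 to 6078 in macrophages (−1.61), from 45878 to 13988 in neutrophils (−1.71) and from 3203.5 to 908.5 in sDCs (−1.82). It stood at 762 and 436.5 in mast cells (−0.80) and at 647.5 and 928 in eosinophils (0.52). Clec10a, a galactose-type lectin, fell from 494 to 9 in sDCs (−5.63, with 2 of 6050 genes falling further), from 226 to 98.5 in macrophages (−1.19), from 243.5 to 69.5 in neutrophils (−1.79) and from 88.5 to 29.5 in mast cells (−1.55). Clec12a, an inhibitory receptor for uric acid crystals, fell in neutrophils from 27627 to 7599 (−1.86) and in sDCs from 1189.5 to 451.5 (−1.40). Clec9a, which binds actin of dead cells, fell in sDCs from 243.5 to 49.5 (−2.28), and Clec1a went from 55 to a listed 0 in macrophages and from 61.5 to 6 in sDCs. Over the same comparison in sDCs, Itgax went from 4075.5 to 818.5 and Xcr1 from 189.5 to 201.5. The 4 neutrophil markers there were led by Mpo (4890 to 714) and Elane (1767.5 to 366.5). The part of other cells in these falls was not tested.

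Before any treatment, 8 of the 66 members had a level in sDCs at least 4 times that of every other cell type (12.1%, against 5.13% of all genes). They were Birc2, Birc3, Traf2, Nod2, Tlr9, Clec2i, Clec4a4 and Clec4b1, and Clec4a4 was at 1103.5 in sDCs and at 4.5 or less elsewhere. Macrophages had 4 such members (6.06%, against 4.9%), Clec2g, Tlr3, Tlr7 and Tlr8. Neutrophils had 3 (4.55%, against 1.47%), Card10, Clec12b and Clec4n. Mast cells and eosinophils had 0 (against 3.4% and 0.974% of all genes).

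IL-10 alone changed few members. Those raised were 3 in macrophages (4.92%, against 2.34% of all genes), 0 in neutrophils (against 1.26%), 1 in sDCs (1.61%, against 1.6%) and 2 in mast cells (3.77%, against 2.28%). Those lowered were 1 in each cell type, against 2.18%, 0.941%, 0.843% and 2.79% of all genes in the same order. The clearest by level were Casp1 in macrophages (2246 to 4831.5, 1.10), Casp6 in sDCs (212 to 531, 1.32), Tlr1 in mast cells (41 to 89, 1.10) and Nod2 in mast cells (144 to 65, −1.14). Casp12 rose in macrophages (32.5 to 122, 1.88), and the others called (Card10, Tnfaip8l3, Clec4b1, Irak1bp1 and Traf4) were at 20.5 or less in both groups. No member was called in the same direction in at least 2 of the 4 cell types, against 0.84% of all genes for higher and 0.317% for lower.

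Cells given IL-10 before LPS were compared with cells given LPS, and these comparisons share the LPS groups with those above. Members called higher numbered 2 of 61 in macrophages (3.28%, against 3.18%), 5 of 63 in neutrophils (7.94%, against 3.06%), 5 of 62 in sDCs (8.06%, against 2.61%) and 0 of 53 in mast cells (against 2.88%). Members called lower numbered 6 in macrophages (9.84%, against 4.62%), 4 in neutrophils (6.35%, against 3.88%), 2 in sDCs (3.23%, against 2.08%) and 1 in mast cells (1.89%, against 4.66%). These counts rest partly on low genes: with a pseudocount of 10, 2 members were lower in macrophages, and 3 were higher in neutrophils and 3 in sDCs.

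Among the Toll-like receptors, Tlr9 and Tlr3 were called lower with IL-10 and LPS and none was called higher. Tlr9 was at 112 with IL-10 and LPS against 233.5 with LPS in macrophages (−1.05), at 363 against 1349.5 in neutrophils (−1.89) and at 648.5 against 1418 in sDCs (−1.13). It was under 10 in every mast cell group. Tlr3 was at 7 against 26 in neutrophils (−1.75) and at 24 against 53 in sDCs (−1.11), with −0.56 in macrophages and 0.47 in mast cells. With a pseudocount of 10 the sDC difference of Tlr3 was −0.89 and the macrophage difference of Tlr9 fell just short of a fold of 2, so that both calls ended. The others were not called in any of the 4 cell types, with differences of −0.96 to −0.51 for Tlr7, −0.83 to 0.40 for Tlr8, −0.49 to 0.16 for Tlr13, −0.75 to 0.60 for Tlr1 and −0.62 to 0.39 for Tlr6. Of the members kept in all 4 cell types, 2 of 53 were lower in at least 2 (3.77%, against 1.96%), Tlr3 and Nod2, since Tlr9 was not kept in mast cells, and of these the Tlr3 call in sDCs ended with a pseudocount of 10.

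Nod2 was at 680 with IL-10 and LPS against 1615 with LPS in neutrophils (−1.25) and at 63.5 against 155.5 in mast cells (−1.28), where IL-10 alone also lowered it. In macrophages the difference was −0.29 and in sDCs −0.23. Tnfaip2 in macrophages was at 14620.5 against 30695 (−1.07), and its differences elsewhere were −0.45 to −0.66. Tnfaip3 was at 29819.5 against 19019.5 in neutrophils (0.65), 12517.5 against 21017.5 in mast cells (−0.75), and differed by −0.08 in macrophages and −0.05 in sDCs. Clec4e and Ikbke were not called in any cell type (−0.58 to 0.36 and −0.42 to 0.26).

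Higher with IL-10 and LPS in at least 2 of the 4 cell types were Clec4a3 and Casp12 (2 of 53, 3.77%, against 1.46%). Clec4a3, a lectin of the dendritic cell immunoreceptor family, was at 1378.5 against 672 in macrophages (1.04), 592 against 222.5 in neutrophils (1.41), 1099 against 413 in sDCs (1.41) and 16.5 against 11 in mast cells (0.54). In macrophages and sDCs, LPS alone had lowered it from 1567 and 1796. Casp12 was at 11.5 against 2.5 in neutrophils and 30.5 against 7.5 in sDCs. These levels are low, and the neutrophil call of Casp12 ended with a pseudocount of 10. With that setting Casp12 was called higher in sDCs only, and Clec4a3 alone met the rule. In neutrophils Casp6 was at 617 against 116.5 (2.39, with 34 of 5949 genes higher), near its untreated 437, and Nlrp12 at 322.5 against 90 (1.83), below its untreated 1490. Clec4n in sDCs was at 2381.5 against 1105 (1.11).

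Some members had the same sign in all 8 comparisons with IL-10, whatever the size. Above 0 were Card9, Tnfaip8l1 and Tnip2 (3 of 53, 5.66%, against 3.04% of all genes) and below 0 were Clec2i, Irak2 and Nfkbil1 (5.66%, against 3.12%). Tnip2, the A20-binding protein ABIN2, was at 737 and 971 without and with IL-10 in macrophages, 321 and 445.5 in neutrophils, 1365 and 1678 in sDCs and 474.5 and 873.5 in mast cells. With LPS it was at 848.5 and 1419, 264.5 and 393, 1884.5 and 2792.5, and 353 and 626 in the same order. Irak2 with LPS was at 6011 without and 3322.5 with IL-10 in macrophages (−0.86), 6931 and 4053.5 in neutrophils (−0.77), 2752.5 and 1833.5 in mast cells (−0.59) and 1438.5 and 1348.5 in sDCs (−0.09). None of these differences reached a fold of 2, and this way of counting was chosen after the values were seen.

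Other genes of the same pathways were taken from a separate list, of which 24 of 61 were in the table. LPS raised 5 and lowered 2 of 24 in macrophages, raised 5 and lowered 3 of 24 in neutrophils and in sDCs, raised 3 and lowered 1 of 23 in mast cells and raised 2 and lowered none of 22 in eosinophils. The shares of all genes raised and lowered were 12.8% and 14.8% in macrophages, 8.71% and 7.9% in neutrophils, 9.04% and 11.5% in sDCs, 4.76% and 5.46% in mast cells, and 2.16% and 0.702% in eosinophils. The cytosolic RNA sensor Ifih1 (MDA5) rose in all 5, from 1124 to 36033.5 in macrophages, 299.5 to 6415.5 in neutrophils, 1139 to 17700.5 in sDCs, 250.5 to 946 in mast cells and 124.5 to 265.5 in eosinophils. Its partner sensor Ddx58 (RIG-I) and the Z-nucleic acid sensor Zbp1 rose in the first 4 of these. With IL-10 and LPS against LPS, 2 of 24 were higher and 1 lower in macrophages, and 4 of 24 were higher and 3 lower in neutrophils. In sDCs 1 of 24 was higher and 0 lower, and in mast cells 1 of 23 was higher and 3 lower. The shares of all genes higher were 3.18%, 3.06%, 2.61% and 2.88% in that order, and those lower 4.62%, 3.88%, 2.08% and 4.66%. Those called in neutrophils were Mrc1, Il1r1, Il18r1 and Il1rap (higher) and Ifih1, Zbp1 and Marco (lower). Ifih1 was at 2236 against 6415.5 in neutrophils (−1.52) and 416 against 946 in mast cells (−1.18), with −0.83 in macrophages and −0.92 in sDCs. IL-10 alone raised Zbp1 in macrophages (1015.5 to 3188), neutrophils (284.5 to 619) and sDCs (154 to 336).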

How the data were processed

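RNA-seq values of 18 groups (36 libraries; 1 further sample of the 37 has no column and was not used) were taken from 1 table of transcripts. Per the study's methods, the authors estimated transcript levels with RSEM 1.2.1 and bowtie 0.12.9 against an Ensembl annotation of mm9 and corrected them for GC content with EDASeq. Each group has 1 deposited column, a normalised score with no read depth, read here as the authors' mean of 2 replicates. This reading is an assumption, made because the column names give no replicate and all values are multiples of 0.5. All columns share 1 maximum, which bounds differences at the top of the scale, and exact values of single transcripts also recur across columns below it. The copy used here ends within a line. Of 17015 complete lines, 22 (0.129%) name no gene and were dropped, and 16993 transcripts were summed over 6509 genes.

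Genes with a value of 10 in a group of the cell type were kept. Differences were taken on log2(value + 1) and called at a fold of 2. Without replicates no test was made. Named genes were the families' main members and, in each comparison, the 5 largest changes in each direction with a value of at least 50, with others named where they complete a count. Members and gene lists were chosen with earlier results of these data known. Casp4 and Nfkbiz were set aside by the rule. The values of 2 members are not reported here, though they are in the counts. Promoter windows and coordinates came from NCBIM37 and GENCODE vM1, in which 16791 transcripts were found. Scripts (python 3.11.15, pandas 2.3.3) were tested on simulated data. Alternatives were a pseudocount of 10, a minimum of 50 or none, a fold of 1.5, centring on the median gene and the largest transcript only.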

Additional observations from a re-analysis of the deposited data

How the results depend on the processing

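No paired analysis was possible because the table holds 1 value per group, and for the same reason no replicate could be left out. Under the alternatives the counts of members changed with LPS in macrophages, neutrophils and sDCs, and those raised in eosinophils, stayed within 1.5 times the reported counts. All other counts start from at most 11 genes. With a fold of 1.5, LPS raised 17 and lowered 7 in mast cells and lowered 1 in eosinophils; IL-10 alone raised 6 and lowered 4 in macrophages, raised 4 in neutrophils, raised 4 and lowered 5 in sDCs, and raised 5 and lowered 2 in mast cells; and IL-10 with LPS raised 6 and lowered 15 in macrophages, raised 4 and lowered 8 in mast cells, raised 8 and lowered 11 in neutrophils, and lowered 9 in sDCs. With a pseudocount of 10, LPS lowered 1 in mast cells, IL-10 alone lowered 0 in macrophages, neutrophils and sDCs and raised 0 in mast cells, and IL-10 with LPS lowered 2 in macrophages, raised 3 in neutrophils, and raised 3 and lowered 1 in sDCs. With a minimum of 50, LPS lowered 1 in mast cells, IL-10 alone lowered 0 in neutrophils and sDCs and raised 1 in mast cells, and IL-10 with LPS raised 3 and lowered 2 in neutrophils and raised 3 in sDCs. With no minimum, LPS lowered 4 in eosinophils, IL-10 alone lowered 3 in neutrophils and 2 each in macrophages, mast cells and sDCs and raised 2 in sDCs, and IL-10 with LPS raised 4 in macrophages and lowered 5 in mast cells. Centred on the median gene, LPS lowered 1 in mast cells and IL-10 with LPS raised 3 in sDCs. With the largest transcript only, IL-10 alone lowered 0 in neutrophils, raised 2 and lowered 2 in sDCs and lowered 2 in mast cells, and IL-10 with LPS raised 4 in macrophages and raised 2 and lowered 3 in mast cells. Clec9a with LPS in macrophages went from −1.49 to 0.06 with the largest transcript only. That transcript was at 11 untreated and 11.5 with LPS, and the other was at 23 and a listed 0, so the call rested on the smaller transcript at low levels. No other named gene that was called changed sign.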
